A study of Mus musculus with 6 samples.

Results

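The BEACH domain genes are a small family of mostly very large proteins, and 8 of them were measured in mouse prefrontal cortex: Nbea (neurobeachin), Nbeal1, Nbeal2, Lrba, Wdfy3, Wdfy4, Lyst and Nsmaf. They are 8 of 54787 genes with a symbol. They were chosen by gene symbol. Their linear RNA was the sum of 102 isoforms that share exons with the gene, out of 112 isoforms listed under these symbols and 175010 isoforms in the table. Their circular RNA (circRNA) was taken as the 120 entries hosted by these genes among 17369 entries.

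The samples came from male C57BL/6 mice, 5 weeks old when the study began and 30 weeks old in the labels. In the PS_high group (n = 3 samples) the mice received polystyrene nanoparticles (PS NPs) at 50 mg per kg of body weight by gavage, daily for 6 months. In the control group (n = 3 samples) the mice received water by gavage, a dose of 0 mg per kg. Total RNA of the prefrontal cortex was depleted of ribosomal RNA and made into stranded libraries. The labels do not say whether a sample is 1 mouse or a pool, so p-values measure the spread between these samples.

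BEACH domain proteins share a C-terminal block of a pleckstrin-homology-like module, the BEACH domain and WD40 repeats. They act as scaffolds at membranes, where they take part in vesicle traffic, in the fission and fusion of lysosome-related organelles and in autophagy. In neurons, neurobeachin binds protein kinase A and is needed for the delivery of glutamate and GABA receptors to synapses, and human NBEA and WDFY3 are linked to neurodevelopmental disorders. A circRNA forms when a splice donor joins an acceptor that lies upstream of it in the gene. The reads that cross this joint, called back-splice reads, are the evidence for the circle.

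The promoter of Nbea, which had the highest level of the family, and that of Wdfy4, which with Nbeal2 was lowest, are shown because they differ most in base composition. Both are RefSeq sequences of the build GRCm38.p6, 5′ to 3′ on the strand of the gene, from 250 bases before to 50 bases after the RefSeq gene start. Capitals mark each CG dinucleotide.
Nbea, chr3:56183652-56183951, minus strand: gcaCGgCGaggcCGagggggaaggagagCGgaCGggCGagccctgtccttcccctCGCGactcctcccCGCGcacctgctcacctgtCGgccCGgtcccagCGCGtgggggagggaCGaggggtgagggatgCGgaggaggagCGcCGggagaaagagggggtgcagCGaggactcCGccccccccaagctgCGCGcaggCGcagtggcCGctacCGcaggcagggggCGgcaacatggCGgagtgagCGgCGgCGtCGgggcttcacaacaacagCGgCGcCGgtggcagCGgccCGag
Wdfy4, chr14:33185017-33185316, minus strand: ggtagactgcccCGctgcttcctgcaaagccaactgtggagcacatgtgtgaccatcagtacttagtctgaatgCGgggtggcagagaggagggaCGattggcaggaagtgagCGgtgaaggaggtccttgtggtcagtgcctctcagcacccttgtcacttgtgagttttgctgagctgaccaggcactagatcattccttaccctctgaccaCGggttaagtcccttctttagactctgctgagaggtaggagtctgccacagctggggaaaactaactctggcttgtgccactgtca
The Nbea window held 36 CG dinucleotides, more than 93.8% of the 32851 RefSeq promoters of this length, and was 75.0% G or C. The Wdfy4 window held 5 and was 54.3% G or C. The median over all promoters was 7. Promoters were found for 6 of the 8 genes, with 30 CG dinucleotides for Nbeal1, 27 for Lrba, 24 for Lyst and 18 for Nbeal2. A CG dinucleotide reads the same on both strands, so these counts hold for either. These counts describe sequence and were not tested against the levels.

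Neurobeachin RNA was abundant in both groups, and no family member passed the test between them. The estimated counts of linear RNA summed to 53344395 to 63466209 in PS_high libraries and 61842978 to 66004386 in control libraries, and back-splice reads to 15658 to 19880 in PS_high and 17554 to 19957 in control libraries. PS_high 1 lay far from the rest on the first principal component of 2000 variable genes (57.0, with the other 5 libraries at -28.3 to 14.4). Without this library the log2 differences of the 8 genes, given below, ran from -0.28 (Wdfy4) to 0.21 (Nbeal2), with -0.03 for Lyst, 0.00 for Nsmaf and 0.08 for Nbea. The 8 markers of cortical excitatory neurons were all measured, and their summed level was 1540 to 1800 CPM (counts scaled to the depth of each library) in PS_high and 1346 to 1749 CPM in control libraries. Platelet markers summed to 3.19 to 5.65 CPM in PS_high and 3.95 to 4.51 CPM in control libraries. Choroid plexus markers summed to 25.7 to 855 CPM in PS_high and 15.1 to 462 CPM in control libraries, and their part in the results was not tested.

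Levels between genes were compared as FPKM, a deposited value per length of transcript that was summed over the isoforms of a gene. In order of the mean over the 6 libraries the levels were 83.7 FPKM for Nbea, 40.9 for Lyst, 22.7 for Wdfy3, 15.4 for Nbeal1, 13.96 for Lrba, 13.8 for Nsmaf, 0.772 for Nbeal2 and 0.526 for Wdfy4. Nbea stood at rank 244 of the 54787 genes. In FPKM, Nbea, Lyst and Wdfy3 did not overlap one another in any library, and Wdfy3 overlapped Nbeal1 through PS_high 1 alone. By mean estimated count, however, Wdfy3 stood above Lyst (rank 286 against 374), so the order of Lyst and Wdfy3 depended on the measure. Nbeal1, Lrba and Nsmaf lay at 12.2 to 17.3 FPKM and overlapped, as did Nbeal2 and Wdfy4, so the order within these 2 sets was not resolved beyond the spread.

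**Figure D1:**
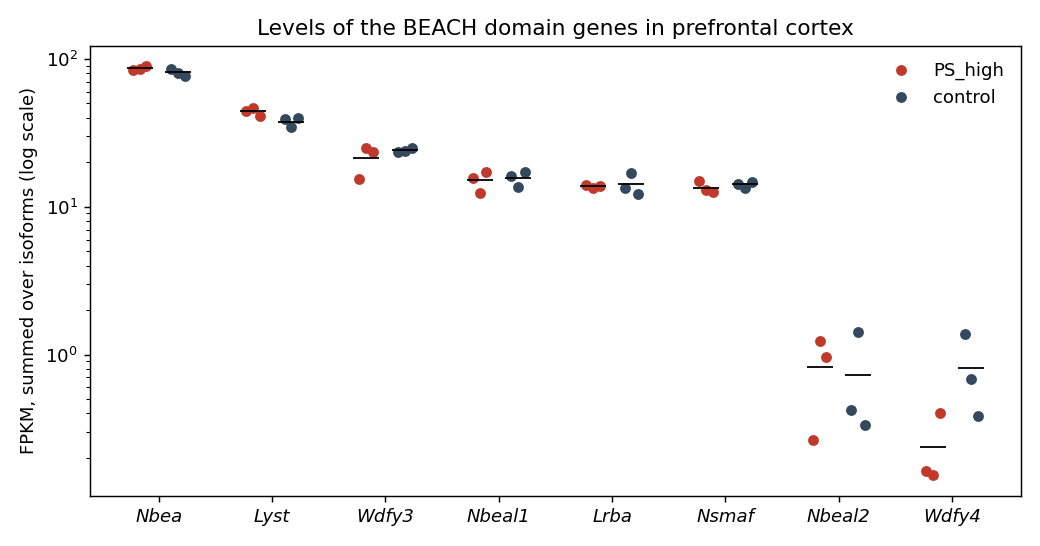
Level of each BEACH domain gene in FPKM on a log axis, with 1 point per library, PS_high left of control, and a line at the group mean (n = 3 each). Nbea was the highest gene in each library, and Nbeal2 and Wdfy4 lay below 2 FPKM throughout.

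The comparison between the groups asked whether the RNA of these genes differed after 6 months of PS NPs. Of the 8 genes, 0 passed an adjusted p under 0.05 in the quasi-likelihood test of edgeR, and 0 had an unadjusted p under 0.05, where 0.0247% and 2.73% of all 20272 genes tested did. With DESeq2 the count was also 0. The adjusted p was 1.0 for each of the 8 genes. Their log2 difference, PS_high over control, had a median of 0.02 with 5 of 8 above 0, and over all genes tested the median was -0.01 with 48.5% above 0. All 8 passed the filter of a mean of at least 0.5 FPKM. In CPM the groups overlapped for each of the 8, where 3.34% of all genes tested had no overlap with PS_high above and 3.75% with PS_high below.

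Nbea itself had 84.3, 85.5 and 89.0 FPKM in PS_high libraries, against 85.6, 80.7 and 77.1 FPKM in control libraries. The groups overlapped, and the control values were spread more widely than the PS_high values. As depth-scaled counts Nbea averaged 1153 ± 31.3 CPM in PS_high and 1081 ± 89.0 CPM in control (SD, n = 3 each), a log2 difference of 0.09 (SE 0.12). The difference was smaller than its error.

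The closest relatives of neurobeachin are Nbeal1, whose function is less known, Nbeal2, which platelets need to form alpha-granules, and Lrba, which protects the immune receptor CTLA-4 from lysosomal breakdown. Nbeal1 had 15.8, 12.4 and 17.2 FPKM in PS_high libraries and 16.2, 13.7 and 17.3 FPKM in control libraries, and averaged 149 ± 23.2 CPM in PS_high and 152 ± 26.1 CPM in control (log2 difference -0.03, SE 0.18). Lrba had 14.02, 13.5 and 13.8 FPKM in PS_high libraries and 13.5, 16.8 and 12.2 FPKM in control libraries, and its log2 difference from CPM was 0.04 (SE 0.13). Both genes overlapped fully between the groups. Nbeal2 was low, at 0.263, 1.24 and 0.958 FPKM in PS_high libraries and 0.420, 1.41 and 0.335 FPKM in control libraries. It averaged 6.34 ± 2.26 CPM in PS_high and 6.57 ± 3.54 CPM in control, and its log2 difference of -0.05 carried an SE of 0.43.

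Wdfy3, also called ALFY, is a scaffold that brings protein aggregates to the autophagy machinery. It had 15.5, 25.0 and 23.6 FPKM in PS_high libraries, against 23.4, 24.0 and 24.8 FPKM in control libraries. PS_high 1 was low and the other 5 libraries were close together. In CPM the gap was smaller, at 405, 548 and 452 in PS_high and 460, 479 and 464 in control (log2 difference 0.00, SE 0.15). Wdfy4, which dendritic cells need to present antigens taken up from dead cells, had 0.163, 0.153 and 0.400 FPKM in PS_high libraries, against 1.37, 0.686 and 0.382 FPKM in control libraries. In FPKM the groups overlapped through PS_high 3 and control 3. Most of the control 1 value lay in ENSMUST00000159606, a short isoform of 347 bases. This isoform had 25 counts in control 1, 7 in control 2 and 0 in the other libraries. In CPM Wdfy4 had 2.66, 2.31 and 5.22 in PS_high, against 3.54, 6.32 and 3.92 in control. On this scale PS_high 3 lay above control 1 and control 3. Wdfy4 averaged 3.39 ± 1.59 CPM in PS_high and 4.59 ± 1.51 CPM in control (SD, n = 3 each), a log2 difference of -0.43 (SE 0.39). Markers of conventional dendritic cells summed to 30.9 to 38.8 CPM in PS_high and 36.6 to 38.5 CPM in control. Nearly all of this sum was Zbtb46 (mean 23.2 CPM) and Flt3 (12.5 CPM). The other 2 of the 4, Clec9a (0.314 CPM) and Xcr1 (0.0299 CPM), were too low to be tested, so the sum says little about the number of these cells. In bulk tissue, fewer cells of a type and less RNA per cell cannot be told apart.

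Lyst, the gene of the beige mouse and of human Chediak-Higashi syndrome, controls the size of lysosomes and lysosome-related organelles. In FPKM it had 44.6, 46.7 and 41.1 in PS_high libraries, against 38.9, 34.6 and 39.6 in control libraries. Each PS_high library lay above each control library on this scale, a separation in that direction shown by 2.76% of all genes tested. The opposite separation, shown by 4.25% of all genes tested, was seen in 0 of the 8. In CPM the same gene had 459, 399 and 381 in PS_high and 382, 403 and 417 in control, and the groups overlapped (log2 difference 0.04, SE 0.13). FPKM divides the counts of each isoform by its length, and the split of the Lyst counts among isoforms also differed between libraries. Nsmaf, an adaptor that couples a tumour necrosis factor receptor to neutral sphingomyelinase, had 14.8, 12.9 and 12.5 FPKM in PS_high and 14.3, 13.4 and 14.8 FPKM in control libraries (log2 difference from CPM 0.12, SE 0.15).

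The deposited counts divide the reads of a gene among its isoforms, and in Nbea, Lrba, Wdfy3, Lyst and Nsmaf most went to isoforms that were assembled from the reads rather than annotated. Assembled isoforms held 84.1% to 88.2% of the Nbea counts in PS_high and 83.7% to 87.6% in control libraries. They held 80.4% to 94.9% for Lyst in PS_high and 89.8% to 96.2% in control, and 0% for Nbeal2 and Wdfy4 in both groups. For Nbeal1 they held 2.60% to 4.38% in 5 libraries and 74.6% in PS_high 3. The main Nbea isoform, MSTRG.24585.1 with 57 exons, had 30581, 32525 and 34198 counts in PS_high libraries and 31819, 31905 and 35194 in control libraries. The annotated coding isoform of Nbea, ENSMUST00000029374 with 58 exons, had 1, 0 and 4 counts in PS_high and 2, 0 and 1 in control. The Nbea reads were thus almost all given to isoforms other than the annotated full-length one. Annotated retained-intron isoforms of Nbea held 15.8%, 11.8% and 13.9% of its counts in PS_high and 16.2%, 13.4% and 12.3% in control.

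The isoforms of Wdfy3 differed strongly between libraries of the same group. MSTRG.30420.1, with 47 exons, had 29, 0 and 5 counts in PS_high libraries, against 5708, 65 and 7022 in control libraries. Each PS_high library lay below each control library, but control 2, at 65 counts, lay far nearer to the PS_high libraries than to the other control libraries. The log2 difference was -8.49 (SE 2.52), with an unadjusted p of 0.0176 and an adjusted p of 1.0 in edgeR. In DESeq2 the adjusted p was 3.57e-05, the only member isoform that any alternative called. MSTRG.30420.1 averaged above the filter of 0.5 FPKM only through control 1 and control 3 (6.92 and 8.33 FPKM). Nothing is therefore read from its p. MSTRG.30420.3, with 66 exons, had 7, 9994 and 156 counts in PS_high and 0, 27 and 0 in control. The annotated coding isoform ENSMUST00000053177 had 2630, 42 and 8760 counts in PS_high and 0, 7699 and 38 in control. These isoforms thus differed strongly between libraries of at least 1 group, while the sum over the gene stayed at 405 to 548 CPM.

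Such differences within a group were not peculiar to Wdfy3. In 13 of the 102 isoforms at least 1 group had a library at 0 and another at 100 or more counts. These were 19.4% of the 67 member isoforms that reached 100 counts in a library, against 22.3% of all 49444 such isoforms. Of these 13, 6 belonged to Wdfy3, 3 to Nbeal1, 2 to Lrba, 1 to Nbeal2 and 1 to Lyst. In Nbeal1 the annotated ENSMUST00000160834 had 5855, 3882 and 347 counts in PS_high and 6471, 5392 and 3356 in control, while the assembled MSTRG.898.2 had 0, 0 and 4584 in PS_high and 0 in each control library. The low annotated count and the high assembled count thus fell in the same library, PS_high 3. Nbea had no such isoform.

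Of the 102 isoforms 57 passed the filter and 0 had an adjusted p under 0.05 in edgeR, against 0.00433% of all 69330 isoforms tested. The unadjusted p was under 0.05 for 2 of the 67 isoforms listed under these symbols that passed, against 3.58% of all. These 2, MSTRG.30420.1 and ENSMUST00000174598 of Wdfy3, passed the filter only through control libraries, where they were high, and nothing is read from their p. Those of the 67 that were not summed lay in introns or on the opposite strand, and most were on the opposite strand. In CPM the groups did not overlap for 2 of these 67 isoforms with PS_high above and 2 with PS_high below, where 3.85% and 4.31% of all isoforms tested did so. The 2 below were MSTRG.30420.1, which passed the filter only through control libraries, and MSTRG.30423.1, an assembled transcript inside an intron of Wdfy3. MSTRG.30423.1 lies on the plus strand, opposite to Wdfy3, and had 236, 184 and 199 counts in PS_high and 266, 264 and 255 in control. The 2 above were short retained-intron isoforms. ENSMUST00000195966 of Lrba had 171, 82 and 133 counts in PS_high and 99, 79 and 83 in control (log2 difference 0.68, SE 0.30, adjusted p 1.0 in edgeR). These counts overlapped and were separated only after scaling to depth, at 0.961 FPKM in PS_high 2 against 0.947 FPKM in control 1. ENSMUST00000223527 of Lyst had 38, 29 and 137 counts in PS_high and 24, 25 and 29 in control (log2 difference 1.51, SE 0.66, adjusted p 1.0), and without PS_high 3 this difference was 0.50. The main isoform of Lyst, MSTRG.9696.1, had 3341, 2345 and 5181 counts in PS_high and 3231, 11616 and 11682 in control (log2 difference -1.16, SE 0.58, adjusted p 1.0 in edgeR), and control 1 lay among the PS_high values.

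The leading isoforms of the other members also varied between libraries. MSTRG.24972.7 of Lrba had 5148, 4567 and 5142 counts in PS_high and 5450, 2853 and 4805 in control (log2 difference 0.32, SE 0.27), and control 2, where it was lowest, was the library in which MSTRG.24972.1 of the same gene had 1679 counts, against 0 to 12 in the other 5. MSTRG.30420.2, the leading isoform of Wdfy3, had 11146, 5497 and 5585 counts in PS_high and 6843, 7363 and 9043 in control, and ENSMUST00000174598 of Wdfy3 had 4189 counts in control 1 and 6 to 17 elsewhere. MSTRG.26345.5 of Nsmaf had 1963, 501 and 454 counts in PS_high and 160, 1092 and 243 in control, an overlap with PS_high 1 highest. Its log2 difference was 1.03, and 0.145 without PS_high 1. Below the filter, the coding isoform ENSMUST00000167320 of Nbeal2 had 175, 324 and 0 counts in PS_high and 230, 463 and 231 in control, and ENSMUST00000130509 of Wdfy4 had 61, 93 and 249 in PS_high and 130, 230 and 208 in control. In PS_high 3 another Nbeal2 coding isoform with the same ends, ENSMUST00000133191, had 333 counts, 94.6% of the gene.

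**Figure D2:**
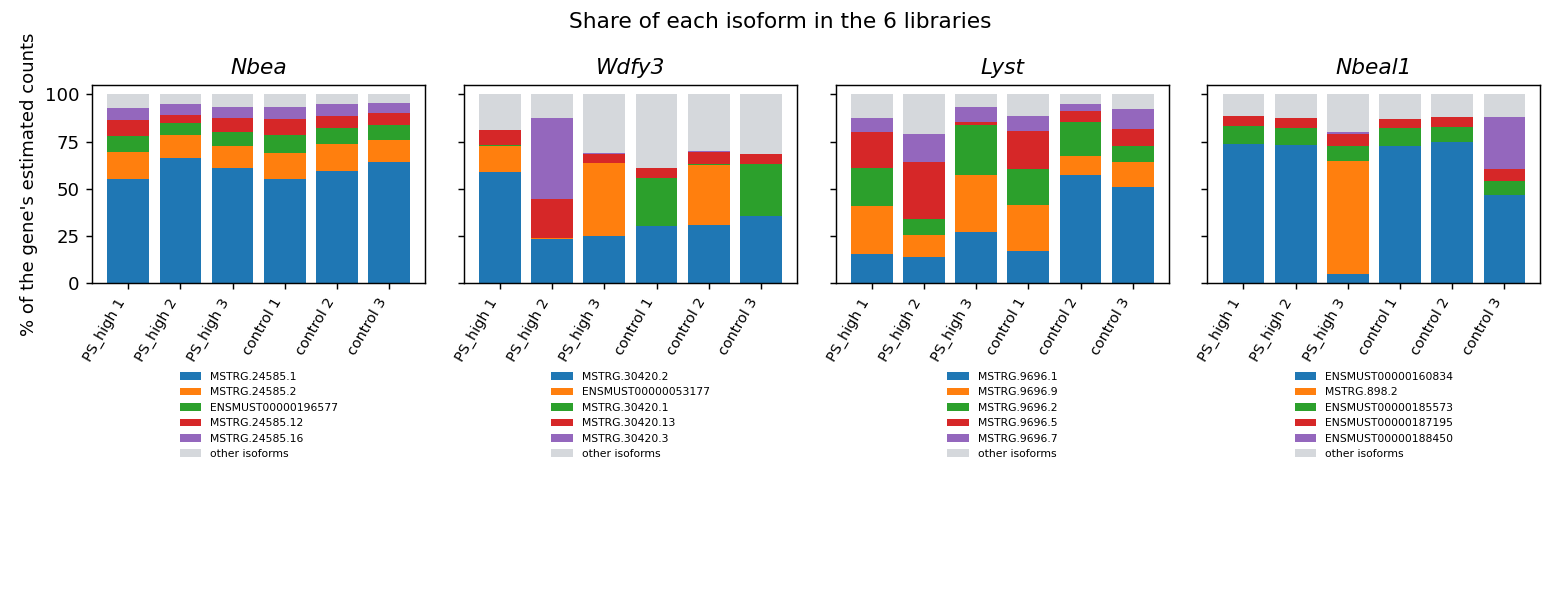
Share of the estimated counts of Nbea, Wdfy3, Lyst and Nbeal1 held by their 5 most abundant isoforms and by the others, in percent, as 1 stacked bar per library. The bars of Nbea look alike in the 6 libraries, whereas the leading isoforms of Wdfy3 change from library to library within each group, and Nbeal1 changes in PS_high 3 and, to a lesser degree, in control 3.

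The circular RNA of the family came mainly from Nbea and Lrba. Nbea hosted 60 entries with 343 back-splice reads, the second highest number of entries and rank 37 by reads among 4597 host genes. Lrba hosted 28 entries with 142 reads, Nbeal1 13 with 40, Lyst 12 with 18, Wdfy3 5 with 8 and Nsmaf 2 with 7. Nbeal2 and Wdfy4, the least abundant genes, hosted 0 entries. A count of 0 over the 6 libraries allows up to 3 reads, or 4.19 SRPBM, the deposited signal that scales back-splice reads by a total per sample. Such limits and the intervals below cover counting error only.

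Relative to the linear RNA, Lrba gave the most circular signal. Its summed SRPBM per FPKM of host averaged 13.5 ± 3.74 in PS_high and 14.8 ± 6.05 in control, while that of Nbea averaged 5.70 ± 1.41 in PS_high and 5.87 ± 1.21 in control (SD, n = 3 each). Lyst, at 48.9% of the FPKM of Nbea, had 0.618 in PS_high and 0.608 in control, and Wdfy3 had 0.238 in PS_high and 0.651 in control. Nbea was highest in both the linear and the summed circular level, whereas Lyst and Wdfy3, next in linear level, gave few back-splice reads.

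**Figure D3:**
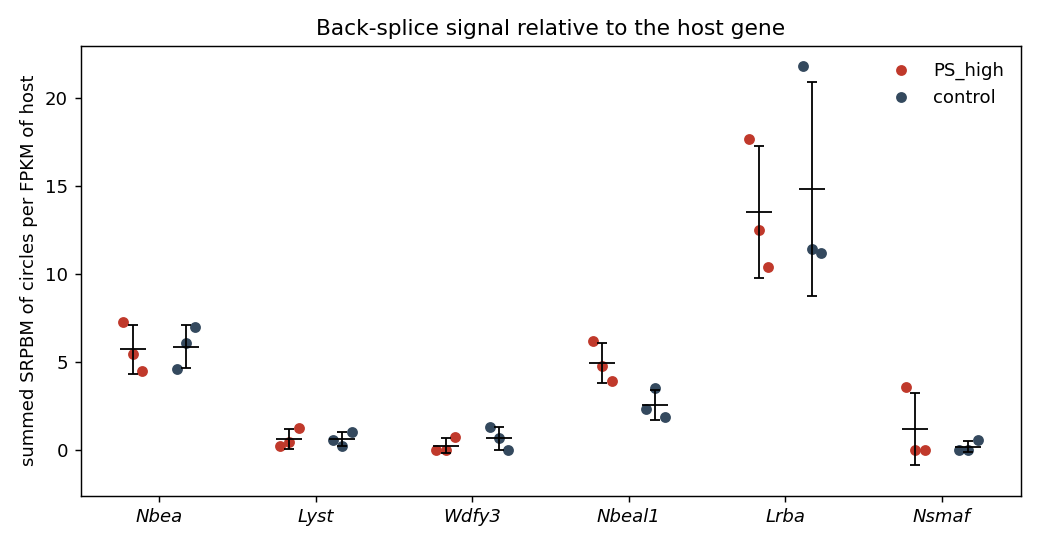
Summed SRPBM of all circRNAs of a host gene divided by its FPKM, with 1 point per library, PS_high left of control, and the mean and SD of each group (n = 3). Lrba lay highest, Lyst and Wdfy3 lay near 0, Nsmaf lay near 0 except in PS_high 1, and Nbeal1 is the host whose groups did not overlap. The share of all hosts without overlap was not computed for this ratio.

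Summed over its circles, Nbea had 69, 47 and 47 back-splice reads in PS_high and 52, 61 and 67 in control, or 490 ± 109 SRPBM in PS_high and 472 ± 74.4 SRPBM in control. Lrba had 28, 17 and 17 reads in PS_high and 39, 24 and 17 in control, or 186 ± 54.4 SRPBM in PS_high and 207 ± 79.6 SRPBM in control. Both overlapped between the groups. Nbeal1 had 11, 6 and 8 reads in PS_high and 5, 6 and 4 in control. Scaled to depth these were 97.2, 59.2 and 67.5 SRPBM in PS_high, against 37.6, 48.1 and 32.1 SRPBM in control, and each PS_high library lay above each control library. Of 2366 hosts with reads in at least 3 libraries, 6.34% had this separation with PS_high above. Per FPKM of Nbeal1 the same reads gave 6.17, 4.78 and 3.92 in PS_high and 2.32, 3.52 and 1.85 in control, without overlap. The share of all hosts without overlap was not computed for this ratio, which is no separate evidence. The Nbeal1 values rest on 40 reads in all and were not tested. Lyst had 1, 2 and 6 reads in PS_high and 3, 1 and 5 in control, and Wdfy3 had 0, 0 and 2 in PS_high and 4, 2 and 0 in control, both overlapping. Nsmaf had 6, 0 and 0 reads in PS_high and 0, 0 and 1 in control, the 6 reads being those of 1 circle of 8 exons in PS_high 1.

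Most circles were rare. Of the 120 entries 46 had reads in PS_high alone, 49 in control alone and 25 in both groups, or 20.8% in both, against 27.0% of all 17369 entries. Of the 115 entries made of exons 67.8% were seen in 1 library, against 64.0% of all 15118 such entries. They were long: the median was 7 exons in the family and 4 over all, and the longest, of Lrba, spanned 43 exons. The other 5 entries lay within introns, 4 in Nbea and 1 in Lyst. The same circle was sometimes listed in 2 rows, which 9 pairs of member rows were, and in no library did both rows of such a member pair hold reads.

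The circles of Nbea, Lrba and Nbeal1 each gathered at 1 splice acceptor. In Nbea 9 entries with 212 reads, 63.5% of its exonic back-splice reads, began at the acceptor of exon 2 at chr3 position 56091120. They numbered 46, 30 and 29 reads in PS_high and 36, 35 and 36 in control. In Lrba 14 entries with 93 reads (65.5%) began at exon 5, at chr3 position 86291428, with 19, 9 and 8 reads in PS_high and 28, 15 and 14 in control. In Nbeal1 5 entries with 29 reads (72.5%) began at exon 3, at chr1 position 60194505. Such gathering was usual, since the median share of the most used acceptor was 73.8% over the 567 hosts with at least 40 exonic reads, and 39.3% of all exonic back-splice reads began at exon 2. The intron before exon 2 of Nbea was 91852 bases long, longer than that of 96.2% of the 2198 entries for which the table gave this length. That before exon 3 of Nbeal1 was 12750 bases and that before exon 5 of Lrba 5693 bases, near and below the median of 10230 bases.

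**Figure D4:**
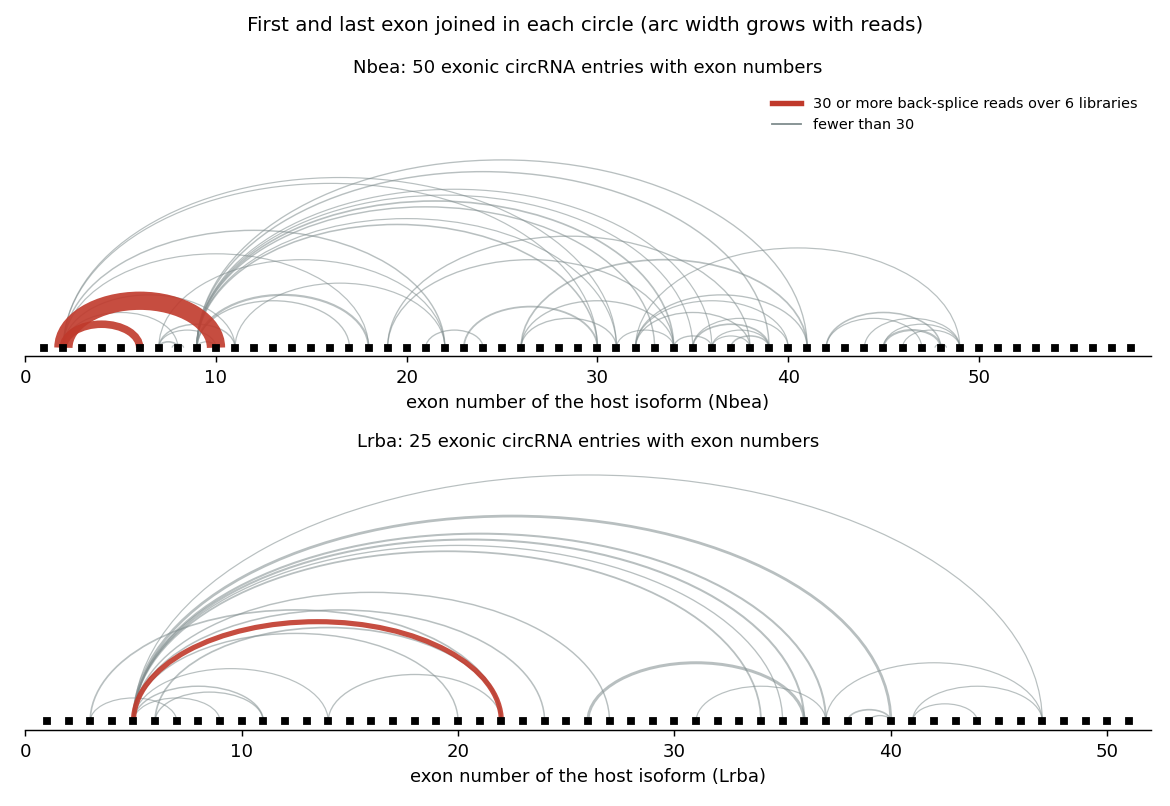
Circles of Nbea and Lrba drawn as arcs from the first to the last exon that each joins, along the exon numbers of the host isoform. Arc width grows with back-splice reads over the 6 libraries, arc height has no unit, and red marks 30 or more reads. The red arcs of Nbea start at exon 2 and the red arc of Lrba starts at exon 5. Entries without exon numbers are not drawn.

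The most abundant circle of the family, mmu_circ_0001131, joins exons 2 to 10 of Nbea (9 exons, chr3:56057951-56091120, minus strand). It had 22, 17 and 18 reads in PS_high libraries, against 30, 29 and 27 in control libraries. Each PS_high library lay below each control library, but the log2 difference of -0.39 was no larger than its error (SE 0.39, adjusted p 0.976 in edgeR). Relative to the linear RNA of Nbea it was -0.46. Over 12 alternatives the log2 difference not relative to the host ran from -0.56 with TMM factors to -0.31 without PS_high 3. The second, mmu_circ_0001133, starts at the same acceptor and ends at exon 6 (5 exons, chr3:56085243-56091120). It had 22, 8 and 7 reads in PS_high, against 3, 5 and 9 in control. PS_high 1 was far above the rest, and the other libraries overlapped. The log2 difference was 1.29 (SE 0.64, unadjusted p 0.0510 and adjusted p 0.976 in edgeR), and 0.61 without PS_high 1. Without control 3 it was 1.80.

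The ratio of these 2 circles, which share an acceptor and differ in the donor, was noticed after the values were seen and was not tested. Of the reads of both, the shorter circle held 50.0% in PS_high 1 (44 reads, 95% Clopper-Pearson interval 34.6% to 65.4%), 32.0% in PS_high 2 (25 reads, 14.95% to 53.5%) and 28.0% in PS_high 3 (25 reads, 12.1% to 49.4%). In control libraries it held 9.09% (33 reads, 1.92% to 24.3%), 14.7% (34 reads, 4.95% to 31.1%) and 25.0% (36 reads, 12.1% to 42.2%). Each PS_high share lay above each control share, but PS_high 3 and control 3 differed by only 3 percentage points and the intervals of PS_high 2 and PS_high 3 overlapped that of each control library. The interval of PS_high 1 overlapped that of control 3 alone. How many other pairs of circles with a shared acceptor separate the groups was not computed.

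**Figure D5:**
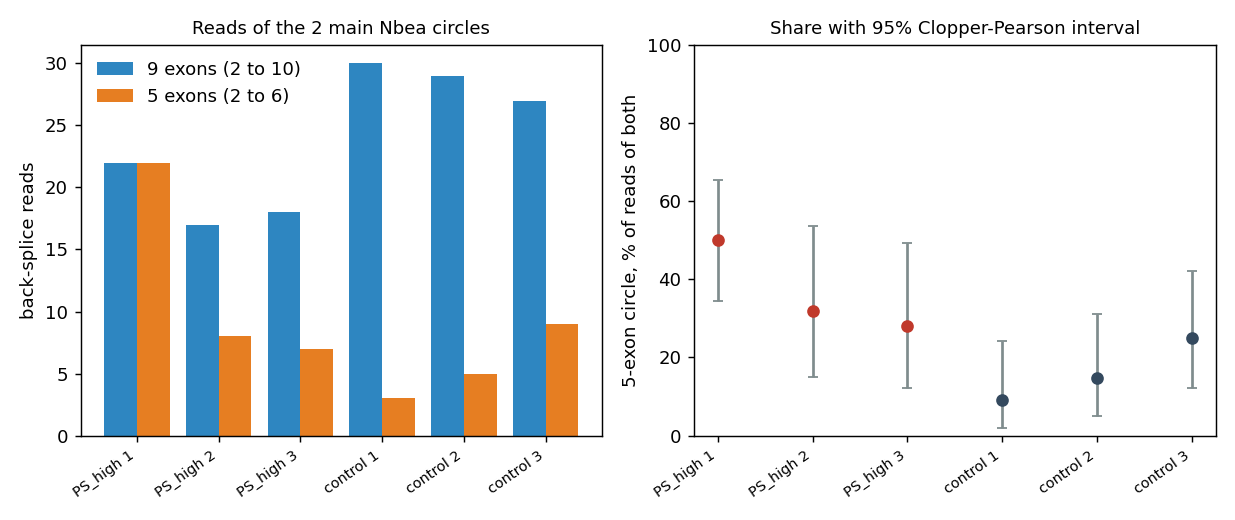
Left, back-splice reads of the 9-exon and the 5-exon circle of Nbea in each library. Right, reads of the 5-exon circle as a percentage of the reads of both, with 95% Clopper-Pearson intervals. The shares run from 28.0% to 50.0% in PS_high and from 9.09% to 25.0% in control, with wide intervals. How often other pairs of circles separate the groups was not computed.

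Of the 17 member circRNAs with reads in at least 3 libraries, 0 had an adjusted p under 0.05 in edgeR, where 0.0305% of all 3275 tested did, and 2 had an unadjusted p under 0.05, against 4.95% of all. These 2, mmu_circ_0010697 and circRNA2782, had reads in 1 group alone, as had 4.31% of all circRNAs tested, so they passed the filter only through the group where they were high and nothing is read from their p. Relative to the host gene 0 of 17 passed, against 0.0636% of 3144, and 2 had an unadjusted p under 0.05, against 5.25%, while DESeq2 called 0 on either scale. Groups did not overlap for 1 circle with PS_high above and 2 with PS_high below, where 6.44% and 4.52% of all circRNAs tested did so. They were the same 2 circles and mmu_circ_0001131. The log2 differences of the 17 had a median of 0.17 with 9 above 0. Over all circRNAs tested the median was 0.15, a shift that TMM factors brought to 0.00, so member values are read against it.

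The circle with PS_high above, mmu_circ_0010697, joins exons 42 to 48 of Nbea. It had 1, 1 and 2 reads in PS_high and 0 in each control library, so it passed the filter only through the PS_high libraries and had to differ. Another row of the table at the same position had 0 reads in each PS_high library and 4, 0 and 0 in control. With both rows merged the circle had 1, 1 and 2 reads in PS_high and 4, 0 and 0 in control, and the log2 difference was 0.20. The groups then overlapped.

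Lrba gave the other separated circle. circRNA2782 joins exons 5 to 37 (33 exons) and had 0 reads in each PS_high library, against 2, 2 and 4 in control. It passed the filter only through the control libraries and had to differ. The neighbouring circRNA2783, which starts at the same acceptor and ends at exon 40, had 7, 2 and 0 reads in PS_high and 2, 1 and 2 in control. Its log2 difference was 1.0, and -0.43 without PS_high 1. The most abundant circle of Lrba, mmu_circ_0010827 (exons 5 to 22, chr3:86291428-86328356, plus strand), had 7, 3 and 2 reads in PS_high and 10, 8 and 4 in control, overlapping, with a log2 difference of -0.65 (SE 0.83). mmu_circ_0010830, of exons 26 to 36, had 3, 4 and 0 reads in PS_high and 6, 1 and 2 in control.

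In Nbeal1 the leading circle, of exons 3 to 7 (chr1:60194505-60206416, plus strand), was also split over 2 rows. mmu_circ_0008846 had 0, 2 and 7 reads in PS_high and 1, 0 and 2 in control, and circRNA7761 at the same position had 4, 0 and 0 in PS_high and 0, 5 and 0 in control. Merged, the circle had 4, 2 and 7 reads in PS_high and 1, 5 and 2 in control, and the groups overlapped. Neither this circle nor mmu_circ_0008845 of exons 3 and 4 (merged 3, 1 and 0 reads in PS_high, and 1, 0 and 2 in control) separated the groups, although the summed SRPBM of the host did.

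The remaining circles named for their reads held few of them. mmu_circ_0010696 of Nbea, of exons 45 to 48, had 4, 0 and 0 reads in PS_high and 1, 2 and 2 in control. In Lyst circRNA4989 (exons 12 to 15) had 0 reads in each PS_high library and 0, 1 and 2 in control, while circRNA12532 (exons 12 to 18), which begins at the same acceptor, had 0, 2 and 0 in PS_high and 0 in each control library. In Wdfy3 circRNA2360 (exons 36 and 37) had 0, 0 and 1 reads in PS_high and 2, 0 and 0 in control, and circRNA2361 (exons 2 to 5) had 0 in PS_high and 2, 0 and 0 in control.

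Genes that work with the family were read from the same fit. None of the 7 lists had a member that passed an adjusted p under 0.05 in edgeR. For reference, 2.73% of all genes tested had an unadjusted p under 0.05. Among 16 protein kinase A subunits and anchors the median log2 difference was 0.03, and 2 had an unadjusted p under 0.05: the anchors Akap1 (26.7 ± 5.85 CPM in PS_high and 16.1 ± 2.04 CPM in control, log2 difference 0.73, adjusted p 1.0 in edgeR) and Akap7 (log2 difference 0.50). The regulatory subunit Prkar1a had 1019 ± 78.7 CPM in PS_high and 946 ± 56.7 CPM in control, and the catalytic subunit Prkacb 641 ± 344 CPM in PS_high and 764 ± 43.6 CPM in control. Of 15 genes of postsynaptic receptor traffic 13 lay above 0 with a median of 0.05 and 0 at an unadjusted p under 0.05, and the glutamate receptor subunits Gria2 (1502 CPM in PS_high, 1533 CPM in control) and Grin2b (1960 CPM in PS_high, 1799 CPM in control) lay within the spread.

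Of 17 genes of selective autophagy 1 had an unadjusted p under 0.05, Tollip, an autophagy receptor, at 154 CPM in PS_high 1 and 13.1 to 19.9 CPM in the other PS_high libraries, against 11.9 to 14.98 CPM in control. Its log2 difference was 2.17, and 0.26 without PS_high 1. Of 22 tested genes of lysosome-related organelle formation the median was 0.00, and Vps33a, a subunit of vesicle tethering complexes, had 163, 193 and 173 CPM in PS_high and 145, 134 and 122 CPM in control (log2 difference 0.40, SE 0.14, unadjusted p 0.0215 and adjusted p 1.0 in edgeR). It was the 1 gene of this list at an unadjusted p under 0.05. Its groups did not overlap, and neither did those of Akap1, Akap7 and Ap1g1. Of all genes tested 3.34% had this separation with PS_high above. The motor Myo5a had 792 ± 121 CPM in PS_high and 824 ± 97.1 CPM in control. The median was 0.03 over 14 endosome and alpha-granule genes, in which the adaptor subunit Ap1g1 had 178, 83.2 and 82.4 CPM in PS_high and 73.7, 64.7 and 66.1 CPM in control. Ap1g1 was the 1 gene of this list at an unadjusted p under 0.05 (unadjusted p 0.0426 and adjusted p 1.0 in edgeR), and its log2 difference was 0.75, and 0.29 without PS_high 1. The median was -0.09 over 9 genes of the tumour necrosis factor and sphingomyelinase pathway of Nsmaf, where Tnf was at 0 in all libraries, and -0.02 over 10 proteins with related modules but no BEACH domain.

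By the root mean square difference of centred log2 CPM over the 6 libraries, the genes most like Nbea among 10239 genes were Gm21781 (0.031), Gm44189 (0.037), Smc1a (0.043), A230072C01Rik (0.044) and Mettl4 (0.045), against a median of 0.231. Lrba stood at place 15, at 0.051, and the other members with a mean of at least 10 CPM lay at 0.123 to 0.167. All these values share the same 6 libraries and describe likeness only.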

How the data were processed

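The labels give 3 PS_high and 3 control samples of mouse prefrontal cortex. HISAT2, StringTie and TopHat are named in the submitters' processing notes. For their versions and the genome build, nothing was stated in the sources used here. Per the file headers, the deposited tables hold, per isoform, an estimated count, which was whole in all rows, and FPKM, and per circRNA a back-splice count and its signal SRPBM, which the authors scaled by a total per sample. Of the 8 genes, 6 share at least 1 end with RefSeq GRCm38.p6; coordinates are those of the tables, with circRNA starts counted from 1.

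Isoforms of class codes =, j, c, o and e were summed per gene symbol. Features were tested if they averaged at least 0.5 FPKM (linear) or had reads in at least 3 of 6 libraries (circular), two-sided, by edgeR 4.0.16 under R 4.3.3 (quasi-likelihood), with TMM factors or the totals behind SRPBM, and Benjamini-Hochberg adjustment over each whole table (threshold 0.05). Host-relative fits used the host count plus 1 as offset. SEs were derived from the F statistic. The scripts were tested on simulated data. Alternatives were DESeq2 1.42.0, limma 3.58.1 on log2 FPKM, other filters and factors, left-out libraries and a replicate block. The members, gene lists and alternatives were chosen with earlier results of these data known, so members' values are descriptions. All members, most of their leading circles and their leading isoforms by reads or p were named. The 2 most abundant genes were named for protein kinase A, postsynaptic receptor traffic and lysosome-related organelles, but not for the other lists. Akap1, Akap7, Tollip and Ap1g1 were named for an unadjusted p under 0.05 in edgeR, and Tnf for its level of 0. Other features were added after their values were seen.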

Additional observations from a re-analysis of the deposited data

How the results depend on the processing

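The count of members called was 0 in each fit, except 1 isoform, Wdfy3 MSTRG.30420.1, with DESeq2. That isoform passed the filter only through control libraries. Nbea and Wdfy4 kept the sign of their log2 difference in all 14 alternatives (0.04 to 0.16 and -1.36 to -0.13), Lyst in 13, Nbeal1 and Nsmaf in 12, Nbeal2 in 10, Lrba in 9 and Wdfy3 in 6. The number of member genes at an unadjusted p under 0.05 was 1 with limma at either pseudocount and 1 in edgeR without PS_high 3. It was 0 in the other gene fits. Over the whole tables the counts were small and moved. Genes called, 5 with edgeR, were 47 with DESeq2, 2 with no filter, and 0 with limma at either pseudocount (585 and 609 at an unadjusted p under 0.05) and with annotated isoforms (694). Isoforms called, 3 with edgeR, were 978 with DESeq2, 22 with limma and 0 with no filter (3878 unadjusted). circRNAs called, 1 with edgeR, were 2 with TMM factors, 0 with at least 12 reads (60 unadjusted) and 4 with no filter. Relative to the host they were 2 with edgeR, 1 with DESeq2, 0 with at least 12 reads (58 unadjusted) and 1 with paired rows merged, an alternative added after seeing the data. Leaving out 1 library at a time gave 0 to 17 genes, 0 to 1 isoforms, 0 to 3 circRNAs and 1 to 4 host-relative circRNAs; the 17 were without PS_high 1. In log2 CPM with the group mean of each gene subtracted, same-numbered libraries of the 2 groups correlated at 0.156, 0.0894 and 0.0598. These values are for what remains within a group, not for whole libraries. The numbers were not taken as pairs, although each library correlated best with its own number in the other group. With a replicate block the counts were 0 genes (650 unadjusted), 0 isoforms (2984), 3 circRNAs and 4 host-relative circRNAs, and 0 members. The causes were not tested. Most circles had few reads.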
